A study of Mus musculus with 2 samples.

Results

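The cytochrome P450 genes of mouse tongue were compared between the circumvallate papillae (CvP) and tongue epithelium that has no papillae (Epi). The members were the rows of the deposited expression table whose gene symbol starts with Cyp followed by a digit, which gave 59 genes of 15 families among 18498 rows. RNA of male C57BL/6J mice, 12 to 30 weeks old and kept on normal chow, was pooled from at least 20 animals for each tissue, and 1 poly(A) library was sequenced per tissue. The values therefore have no replicate and no p-value was calculated. CvP tissue taken for RT-PCR in the study also held the epithelium around the taste buds. Expression is given as RPKM, the reads of a gene scaled to its length and to the depth of the library, and the libraries held about 28375286 (CvP) and 27910121 (Epi) mapped reads. A gene was counted as higher in one tissue when its RPKM there was at least 1 and more than 3 times that of the other tissue. Most CvP/Epi ratios of single genes are given with a 95% exact (Clopper-Pearson) binomial interval from estimated reads, which covers counting error only. Because whole tissue was used, more cells of a type cannot be told apart from more RNA per cell.

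Cytochrome P450 enzymes are heme-containing monooxygenases, which split molecular oxygen and insert one of its atoms into a substrate. Families 1 to 3 mainly act on foreign compounds, and in the airway and nasal lining they act on inhaled or odorous chemicals. The other families act mostly on the body's own lipids, namely fatty acids, retinoic acid, vitamin D, sterols and steroid hormones. Most are bound to the endoplasmic reticulum and take electrons from the reductase Por, while a few are mitochondrial and take them from adrenodoxin (Fdx1) and its reductase (Fdxr).

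The feature shared by the superfamily is the loop around the cysteine that holds the heme iron, which follows the pattern FxxGxxxCxG, where x is any residue. It was found in a coding transcript of 54 of the 57 members with a GENCODE M1 coding transcript. Of 22496 other coding genes 44 (0.196%) had it in their longest transcript. All coding transcripts of a member were searched but only the longest of another gene, so the searches were not alike. The exceptions were *Cyp2s1*, *Cyp20a1* and *Cyp8b1*, in whose transcripts this strict pattern was not matched. The cysteine codon was TGC in 34 members and TGT in 20. The 30 bases that encode the loop are shown 5′ to 3′ for the 5 members with the pattern that had the highest CvP level and for the 2 expressed members with the highest CvP/Epi ratio, because the results turn on them. The capitals mark the cysteine codon.
Cyp2f2: ttttcggctggacgtcgactgTGTctggga
Cyp2a5: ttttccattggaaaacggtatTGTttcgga
Cyp4f39: ttctcagcaggtcccaggaatTGCatcggg
Cyp3a13: tttgggagtggaccaaggaacTGCattggc
Cyp51: tttggagctgggcgtcatcgtTGTgttgga
Cyp17a1: ttcggagctggtccccgatcgTGCattgga
Cyp4v3: ttttctgctggacctcgaaacTGTattggt

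On NCBI37/mm9 these stretches lie in coding exons at chr7:27917625-27918254 (*Cyp2f2*, plus strand), chr7:27626879-27627916 (*Cyp2a5*, plus), chr17:32628818-32629259 (*Cyp4f39*, plus), chr5:138336495-138336524 (*Cyp3a13*, minus), chr5:4083284-4086469 (*Cyp51*, minus), chr19:46742010-46742039 (*Cyp17a1*, minus) and chr8:46392461-46393761 (*Cyp4v3*, minus). Those of *Cyp3a13* and *Cyp17a1* lie within a single exon, and the others are interrupted by an intron. The cysteine codon is number 436 of 491 in *Cyp2f2* and number 441 of 507 in *Cyp17a1*. Compared with *Cyp2f2*, the loop differed at 8 of the 30 bases in *Cyp4v3*, at 10 in *Cyp51*, at 12 in *Cyp2a5* and *Cyp17a1*, and at 15 in *Cyp4f39* and *Cyp3a13*.

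Of the 59 P450 genes, 24 reached 1 RPKM in either library and are called expressed here, against 67.8% of all rows. In the CvP 22 members reached this level and in the Epi 21, and 19 reached it in both. An RPKM of 10 or more in the CvP was found for 11 members, against 29.8% of the rows. The remaining 35 were below 1 in both libraries, and 18 of the 59 were at or below 3 estimated reads in both, for which no fold was calculated. Of the 24 expressed members, 9 (37.5%) were higher in the CvP, namely *Cyp2f2*, *Cyp3a13*, *Cyp2b10*, *Cyp20a1*, *Cyp7b1*, *Cyp4f17*, *Cyp2j9*, *Cyp17a1* and *Cyp4v3*. The same was true of 15.9% of the 12549 rows that reached an RPKM of 1 in either library. No member was higher in the Epi, against 1.96% of the same rows. For 7 of the 9 the whole interval lay above 3. When ratios were divided by the median ratio of 1.31 over the rows with 1 RPKM or more in both libraries, 4 members passed 3-fold towards the CvP and 2 towards the Epi (*Cyp4a29-ps* and *Cyp2b19*), against 12.4% and 3.04% of the rows. The members that no longer passed were *Cyp2f2* at 2.33, *Cyp3a13* at 2.69, *Cyp20a1* at 2.88, *Cyp7b1* at 2.99, and *Cyp2j9*, which lay at the limit. That division lowers every log2 ratio by 0.39, and rescaling both libraries to the same summed RPKM raises it by 0.27. Over rows with an RPKM of 10 or more in the higher library the background was 7.58%, and 3 of 11 such members were higher in the CvP. From 1 to below 10 it was 23.0%, and 6 of 13 members were higher. The median log2 ratio of the expressed members, with 0.1 added to each RPKM, was 0.63, and that of all rows under the same filter was 0.50. A CvP value above the Epi value, of any size, was found for 17 of the 24 (70.8%) and for 78.1% of the rows.

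**Figure D1:**
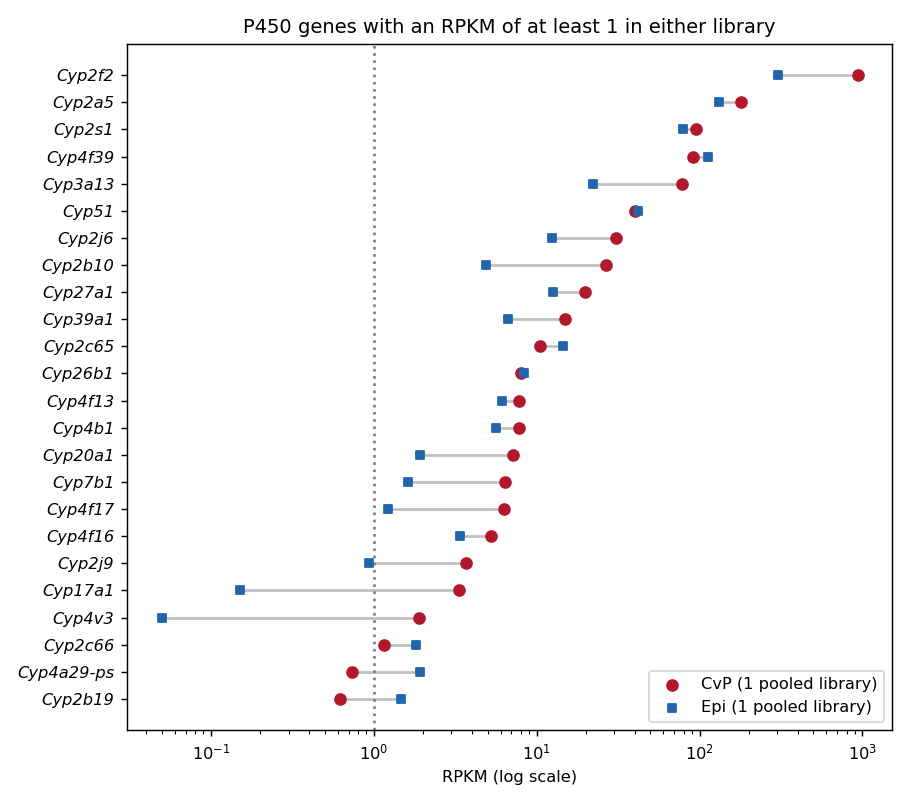
RPKM on a log axis of the 24 P450 genes that reached an RPKM of 1 in either library, with circles for the CvP library, squares for the Epi library and a grey line joining the values of a gene. *Cyp2f2* stands alone at the top, at 935 in CvP against 305 in Epi, and the widest gaps are those of *Cyp17a1* and *Cyp4v3*, which are low in both libraries.

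The first group is made of the enzymes best known for foreign compounds, with 22 members, 8 of them expressed and 3 higher in the CvP. *Cyp2f2* (chr7:27904974-27918679 on NCBI37/mm9, plus strand) encodes the enzyme that activates naphthalene in the club cells of mouse airways. Its level was 935 in CvP against 305 in Epi, about 49507 and 15898 reads, and the ratio was 3.06 (95% interval 3.01 to 3.12). It was the highest P450 gene in both libraries and number 34 of all rows in the CvP and number 154 in the Epi. The ratio lay just past the limit of 3 and was 2.33 after division by the median ratio, and the next ratio below the limit was that of *Cyp2j6*, at 2.50. In GENCODE M1, 274 of its 2025 exon bases overlap an antisense transcript (*Gm15883*), and the counting is not stated to use strand, so such reads could not be told apart. None of its 75-base windows matched another coding gene with 2 or fewer mismatches.

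*Cyp2a5*, a coumarin and nicotine hydroxylase known from liver and olfactory mucosa, was the second highest, with an RPKM of 181 in CvP against 131 in Epi. The ratio was 1.38 (1.34 to 1.42), close to the median ratio of 1.31 over the 10363 rows that reached 1 RPKM in both libraries. Its neighbour *Cyp2a4*, a steroid hydroxylase, was listed at only 0.22 in CvP against 0.21 in Epi. The coding sequences of both have 1485 bases and differ at 23 of them (98.5% identity), and 72.4% of the 75-base windows of *Cyp2a5* match *Cyp2a4* with 2 or fewer mismatches. How reads were divided between the pair therefore depends on the treatment of reads with several matches, which is not stated in the sources used here. The richest stretch of 60 coding bases, bases 598 to 657 from the start codon, holds 4 of the differences, in capitals below, and is shown as one of the places where a read can tell the 2 genes apart.
Cyp2a5: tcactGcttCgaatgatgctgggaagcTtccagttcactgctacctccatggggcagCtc
Cyp2a4: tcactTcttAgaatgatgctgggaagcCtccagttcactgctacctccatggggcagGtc

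*Cyp2s1*, an extrahepatic enzyme found in lung, gut and skin epithelia, had an expression level of 95.8 in CvP against 79.3 in Epi, a ratio of 1.21 (1.17 to 1.25) that was 0.921 after division by the median ratio. *Cyp3a13* (chr5:138334161-138362847, minus strand), the only member of family 3 with a row and a relative of the main drug-metabolizing enzymes of the liver, was found at 78.5 in CvP against 22.3 in Epi. Its ratio of 3.53 (3.35 to 3.71) was the highest among the 5 members with the highest CvP level. *Cyp2b10* (chr7:26682683-26711643, plus strand), a phenobarbital-inducible enzyme and the classic target of the receptor CAR (*Nr1i3*), had 26.7 in CvP against 4.88 in Epi, a ratio of 5.46 (4.78 to 6.27). Of its windows 21.4% match other genes, mostly *Cyp2b13*, which was not analysed here. These genes, *Cyp2f2*, *Cyp3a13* and *Cyp2b10*, were the 3 members that also met the criteria of the study, a CvP RPKM above 10 and a ratio above 3. In the deposited values 435 rows (2.35%) met them. The paper reports a larger number of genes for these criteria, and the reason for the difference was not tested. No member met the opposite criteria, against 0.600% of the rows.

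Other members of the group stood lower or went the other way. *Cyp2c65*, an arachidonic acid metabolizing enzyme known from the gut, had 10.6 in CvP against 14.6 in Epi, a ratio of 0.725 (0.650 to 0.808). Its neighbour *Cyp2c66* had 1.15 and 1.82, a ratio of 0.632 (0.436 to 0.897), but the 2 genes share 50.8% of the windows of *Cyp2c65*, so their levels are uncertain in the same way. *Cyp2b19*, known as a keratinocyte enzyme that epoxidizes arachidonic acid, was at 0.62 in CvP against 1.46 in Epi, a ratio of 0.425 (0.297 to 0.602). The aryl hydrocarbon receptor targets of family 1 were nearly silent. *Cyp1b1* had 0.66 in CvP against 0.98 in Epi, and *Cyp1a1* 0.07 and 0.45, the latter from about 5 and 33 reads with bounds of the ratio at 0.0454 and 0.384. The ethanol-inducible *Cyp2e1* was at 0.04 in CvP against 0.11 in Epi, about 2 and 5 reads.

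Some members that did not reach an RPKM of 1 also differed beyond counting error. *Cyp2g1*, an olfactory mucosa enzyme, had 0.55 in CvP against 0.04 in Epi, about 29 and 2 reads, with bounds of the ratio at 3.61 and 123. *Cyp2d22* had 0.57 and 0.13, a ratio of 4.38 (2.20 to 9.85). In the other direction *Cyp2w1*, an enzyme of the developing gut, had 0.18 in CvP against 0.57 in Epi, a ratio of 0.316 (0.127 to 0.754). These values rest on few reads, so the folds are loosely bounded. The interval of *Cyp2t4*, at 0.30 and 0.12, included 1.

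**Figure D2:**
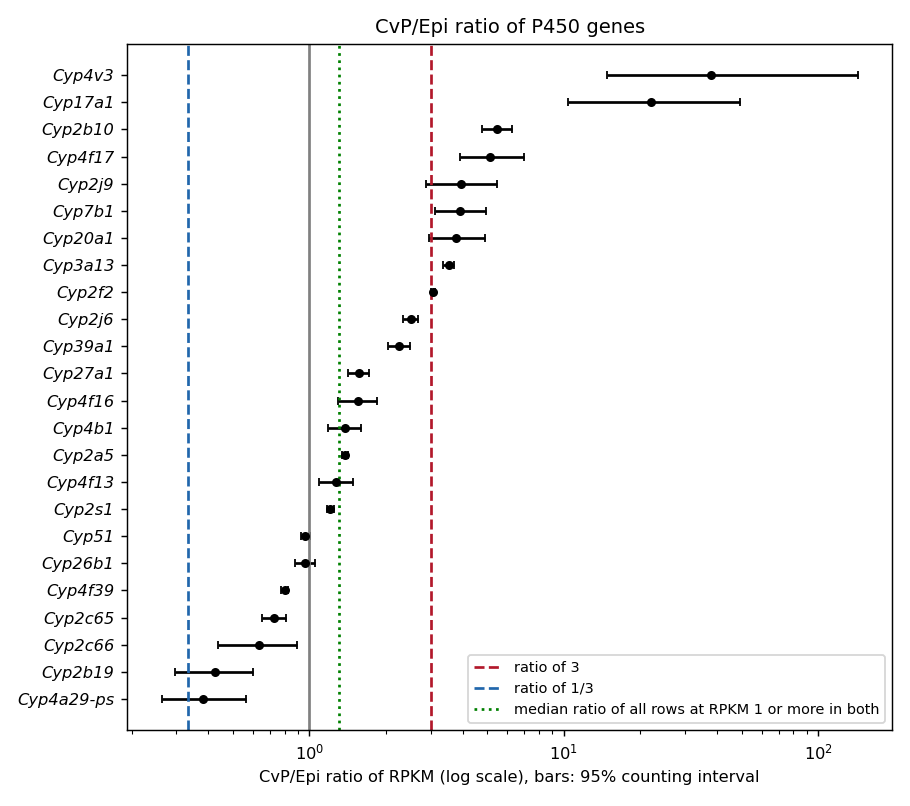
CvP/Epi ratio of RPKM on a log axis for the 24 expressed P450 genes, with 95% counting intervals as bars, dashed lines at ratios of 3 and 1/3, and a dotted line at the median ratio of 1.31 of the rows with an RPKM of at least 1 in both libraries. The 9 genes to the right of 3 run from *Cyp2f2* at 3.06 to *Cyp4v3* at 37.8, and no gene lies to the left of 1/3.

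The second group acts on fatty acids and eicosanoids and consists of family 4 with the *Cyp2j* and *Cyp2u* genes. Of its 21 members 9 were expressed, 3 of them higher in the CvP. *Cyp4f39* (chr17:32589668-32630265, plus strand), the omega-hydroxylase of ultra-long-chain fatty acids needed for the acylceramides of the skin barrier, was the highest of the group. Its level was 90.6 in CvP against 113 in Epi, a ratio of 0.799 (0.773 to 0.826), so that it was one of 7 expressed members with a higher value in the Epi. The 8 other expressed genes of barrier lipid synthesis in the list used here had the same direction, while 78.1% of all expressed rows had the higher value in the CvP. *Alox12b*, a lipoxygenase of the same pathway, had 205 in CvP against 353 in Epi, *Elovl1*, a fatty acid elongase, 126 and 248, and *Elovl4*, which makes the ultra-long chains, 141 and 209. None of the 8 passed a ratio of 1/3, against 1.96% of all expressed rows. The lowest was *Pnpla1* at 0.369, and the median log2 ratio of the 8 was -0.84.

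The neighbours of *Cyp4f39* on chromosome 17 were lower and did not share its direction. *Cyp4f13* had 7.77 in CvP against 6.14 in Epi, and *Cyp4f16* had 5.24 and 3.38, ratios of 1.27 (1.09 to 1.48) and 1.55 (1.30 to 1.84), the former 0.964 after division by the median ratio. *Cyp4f17* had 6.34 in CvP against 1.23 in Epi, a ratio of 5.15 (3.90 to 6.97), and was the only member of this cluster higher in the CvP. Enzymes of this subfamily hydroxylate leukotrienes and other long fatty acids. Of the windows of *Cyp4f16* 40.5% match other genes, and of those of *Cyp4f17* 13.0%. In both these were mostly *Gm9705*, which has a row but was not analysed here. *Cyp4f18*, a leukotriene B4 hydroxylase of neutrophils that lies on chromosome 8, had 0.46 in CvP against 0.02 in Epi, about 22 reads and 1 read, a ratio of 23.0 (3.50 to 893). Of its exon bases 181 overlap *Zfp961* on the opposite strand, so reads of the 2 genes could not be told apart there. The pseudogene *Cyp4f41-ps* was at 0.16 and 0.13, and *Cyp2u1*, a fatty acid hydroxylase, at 0.11 and 0.09.

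*Cyp4v3* (chr8:46391156-46418550, minus strand), the mouse counterpart of the human gene mutated in Bietti crystalline dystrophy, had the highest ratio of the expressed members. Its level was 1.89 in CvP against 0.05 in Epi, about 157 and 4 reads, a ratio of 37.8 (14.8 to 143). Its exons share 313 bases with *Klkb1* on the same strand, which was not analysed here. *Cyp4b1*, an activator of lung toxins, had 7.76 and 5.63, a ratio of 1.38 (1.18 to 1.60). *Cyp4a29-ps*, a pseudogene, was at 0.74 in CvP against 1.93 in Epi, a ratio of 0.383 (0.263 to 0.562). The *Cyp4a* genes *Cyp4a12a*, *Cyp4a12b*, *Cyp4a14* and *Cyp4a32*, fatty acid hydroxylases of liver and kidney, were at or below 3 estimated reads in both libraries.

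Among the *Cyp2j* genes, whose products make epoxides from arachidonic acid, 2 of the 6 with a row were expressed. *Cyp2j6* had 30.9 in CvP against 12.4 in Epi, a ratio of 2.50 (2.34 to 2.67). *Cyp2j9* had 3.70 and 0.94, a ratio of 3.94 (2.88 to 5.46), whose lower bound fell below 3. Both thus had their higher value in the CvP, while the other 4 *Cyp2j* genes were at or below 3 reads in both libraries. *Ephx1*, the epoxide hydrolase of the endoplasmic reticulum, had a ratio of 2.60 (94.8 and 36.4). The epoxide hydrolase *Ephx3* had a ratio of 1.04 (69.1 and 66.4), and *Ephx4* had 4.88 and 5.10. *Ephx2*, another epoxide hydrolase, was at 0.10 in both libraries, about 6 reads in each. The list held no gene past 3-fold among 3 expressed, against 15.9% of all expressed rows towards the CvP and 1.96% towards the Epi. The median log2 ratio of the list was 0.06.

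The third group breaks down retinoic acid. *Cyp26b1* (chr6:84521408-84543902, minus strand) was its only expressed member, at 8.03 in CvP against 8.36 in Epi, a ratio of 0.961 (0.880 to 1.05) whose interval included 1. The ratio was 0.732 when divided by the median ratio but 1.16 with the libraries rescaled to the same sum, so its direction depended on the scaling. *Cyp26a1* had about 16 reads in CvP and was listed at 0 in the Epi. Against a floor of 3 reads it was 5.25-fold higher in the CvP, and the lower bound of its interval was 3.79. *Cyp26c1* had about 3 reads and 0. Some genes of retinoic acid synthesis differed far more. *Aldh1a1*, a retinaldehyde dehydrogenase, had 74.2 in CvP against 0.30 in Epi, a ratio of 247 (156 to 429), and *Aldh1a3*, another, had 24.8 and 0.33, a ratio of 75.2 (52.6 to 109). The retinoic acid receptor *Rarb* was at 6.03 and 0.28, a ratio of 21.5 (14.1 to 33.5). These 3 were higher in the CvP of 11 expressed genes in the list, against 15.9% of all expressed rows. The median log2 ratio of the list was 1.12. The genes with the highest levels besides, *Crabp2* (116 and 125) and *Rarg* (46.5 and 44.9), differed little between the libraries. Other enzymes of the list also stayed below 3-fold, with ratios of 2.34 for *Rdh10*, 1.13 for *Dhrs9* (37.4 and 33.2) and 0.992 for *Dhrs3*.

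The fourth group is that of vitamin D. *Cyp27a1* (chr1:74760148-74784464, plus strand), a mitochondrial sterol hydroxylase of vitamin D and bile acid synthesis, had 19.8 in CvP against 12.7 in Epi, a ratio of 1.56 (1.42 to 1.72). The vitamin D hydroxylase *Cyp2r1* was at 0.26 and 0.11, the activating *Cyp27b1* at 0.17 and 0.03, and the degrading *Cyp24a1*, a target of the vitamin D receptor, at 0.07 and 0.06. Apart from *Cyp27a1*, the dedicated enzymes of the pathway therefore stayed below 1 RPKM. The receptor *Vdr* had 11.1 in CvP against 8.35 in Epi, a ratio of 1.33 (1.22 to 1.44). *Trpv6*, a vitamin D-dependent calcium channel, had 1.90 and 1.76. The calcium-sensing receptor *Casr* had 1.09 in the CvP and was listed at 0 in the Epi. Against the floor of 3 reads it was 45.9-fold higher, and the lower bound of its interval was 36.8. It was the only one of the 3 expressed genes of the list past 3-fold, while 15.9% of all expressed rows were higher in the CvP. The median log2 ratio of the list was 0.40.

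The fifth group works on sterols. *Cyp51* (chr5:4080674-4104697, minus strand), the lanosterol demethylase of cholesterol synthesis, had 40.2 in CvP against 41.7 in Epi, a ratio of 0.965 (0.926 to 1.01) whose interval included 1. Its direction depended on the scaling, since the ratio was 0.735 when divided by the median ratio but 1.16 with the libraries rescaled to the same sum. The other genes of cholesterol synthesis and its control stood similarly close. Of 21 expressed genes in the list none passed 3-fold towards the CvP or the Epi, against 15.9% and 1.96% of all expressed rows. In 6 the higher value was in the CvP, against 78.1% of those rows. The median log2 ratio was -0.15. *Fdps*, which makes farnesyl diphosphate, had 92.3 and 133, *Sc4mol*, the next oxidase after *Cyp51*, 84.4 and 86.3, and *Ebp*, a sterol isomerase, 32.6 and 62.2. *Cyp39a1*, an oxysterol hydroxylase, had 14.9 in CvP against 6.63 in Epi, a ratio of 2.25 (2.04 to 2.49). *Cyp7b1* (chr3:17971950-18143338, minus strand), an oxysterol hydroxylase of the alternative route to bile acids, had 6.35 and 1.62, a ratio of 3.92 (3.13 to 4.94). *Cyp46a1*, the brain cholesterol hydroxylase, had 0.60 and 0.16, and *Cyp8b1*, an enzyme of bile acid synthesis, at most 3 reads in either library.

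The steroid hormone enzymes and *Cyp20a1* complete the family. *Cyp17a1* (chr19:46741655-46747490, minus strand), the 17-hydroxylase and lyase of adrenal and gonad, had 3.32 in CvP against 0.15 in Epi, about 171 and 8 reads, a ratio of 22.1 (10.4 to 49.5). *Cyp11a1*, which starts steroid synthesis by cutting the cholesterol side chain, had about 13 reads in CvP and was listed at 0 in the Epi. Against the floor it was 4.26-fold higher in the CvP, but the lower bound of its interval was smaller than that. *Cyp11b1*, which completes corticosterone, was listed at 0 in both libraries. The RPKM of *Cyp17a1* was thus above that of *Cyp11a1*, which acts before it. *Cyp20a1* (chr1:60400216-60444231, plus strand), an orphan without an assigned substrate, had 7.21 and 1.91, a ratio of 3.77 (2.94 to 4.89).

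By family, the summed RPKM of all 59 members was 1589 in CvP against 782 in Epi, a ratio of 2.03, which is 0.466% and 0.190% of the summed RPKM of the libraries. *Cyp2f2* alone held 58.8% of the P450 sum in the CvP and 39.0% in the Epi. Family 2, with 27 members, summed to 1288 in CvP against 553 in Epi, a ratio of 2.33, and without *Cyp2f2* its ratio was 1.42. Family 4, with 14 members, summed to 121 and 132, a ratio of 0.917, and without *Cyp4f39*, which held 74.9% and 85.9% of it, the ratio was 1.64. In these 2 families the sum, as deposited, had the direction of its leading gene, but rescaled to the same sum of all rows the ratio of family 4 was 1.11. In family 1 the sum was 0.73 in CvP against 1.43 in Epi. Family 26 summed to 8.40 and 8.36 as deposited, nearly all of it *Cyp26b1*, with the scaling limit given for that gene.

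**Figure D3:**
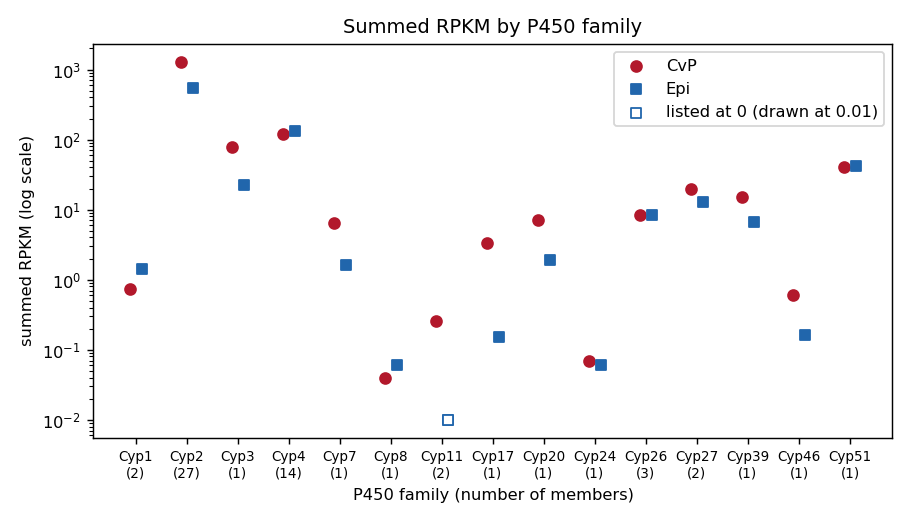
Summed RPKM on a log axis of the members of each P450 family, with circles for the CvP library, squares for the Epi library and the number of members in parentheses. Family 2 is the highest, at 1288 in CvP against 553 in Epi, families 4, 26 and 51 lie nearly level at the deposited scaling, and family 11 was listed at 0 in the Epi.

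The listed gene lengths bear on these levels. Among the expressed members the listed length was a median of 1.24 times the longest GENCODE M1 coding transcript and up to 3.72 times in *Cyp3a13*, while among members below an RPKM of 1 the median was 1.00. Divided by transcript length instead, *Cyp3a13* would have 292 in the CvP, behind only *Cyp2f2* at 1839 and *Cyp2a5* at 454. The ratio of a single gene is not changed by the length, but that of a sum is, and per transcript length it was 2.18 for all members and 1.00 for family 4.

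Position was not used to choose the members. With starts less than 500 kb apart counted as neighbours, 37 of the 59 members lay in 8 clusters. The largest, on chromosome 7 (chr7:26587495-27943583), held 9 members of family 2, of which 5 were expressed. It contributed 78.0% of the P450 sum in the CvP and 66.8% in the Epi. Within it the levels were uneven. *Cyp2f2*, *Cyp2a5*, *Cyp2s1* and *Cyp2b10* were high, *Cyp2b19* and *Cyp2g1* stood between them at about 1 or less, and *Cyp2b23* was listed at 0 in both libraries. The directions also differed, since *Cyp2f2* and *Cyp2b10* were higher in the CvP while *Cyp2b19* had its higher value in the Epi. The *Cyp2d* cluster on chromosome 15, whose products hydroxylate many drugs, had no expressed member among the 4 genes with a row. Its relatives *Cyp2d9* and *Cyp2d11* have no row here. The *Cyp4f* cluster on chromosome 17 had 4 expressed members of 6 with a row, with sums of 110 in CvP against 124 in Epi.

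**Figure D4:**
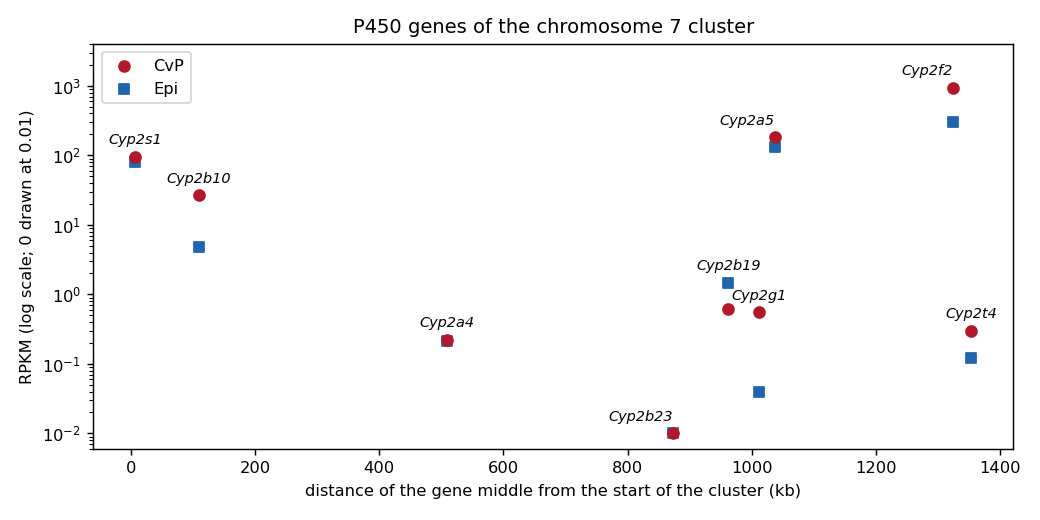
RPKM on a log axis of the 9 P450 genes of the chromosome 7 cluster against the distance of each gene's middle from the start of the cluster, with circles for the CvP library and squares for the Epi library. High and nearly silent genes lie side by side along the cluster, and *Cyp2f2*, at 935 and 305, lies near its far end.

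Among the genes that deliver electrons to P450 enzymes none passed 3-fold towards the CvP or the Epi, against 15.9% and 1.96% of all expressed rows. *Por*, the reductase of the endoplasmic reticulum, had 119 in CvP against 49.3 in Epi, a ratio of 2.42 (2.33 to 2.51). *Cyb5r3*, a cytochrome b5 reductase, had 44.5 and 16.8, a ratio of 2.65 (2.47 to 2.83), and *Pgrmc1*, a heme-binding partner, 58.0 and 33.9. The mitochondrial carrier *Fdx1* was nearly even, at 17.5 and 15.3. Of 10 expressed genes of this list 9 had the higher value in the CvP, as did 78.1% of all expressed rows, and the median log2 ratio was 0.84. Of the sensors that induce P450 genes, *Ahr*, the aryl hydrocarbon receptor, had 11.7 and 4.67, a ratio of 2.49 (2.29 to 2.72). *Nfe2l2*, the oxidative stress regulator, had 188 and 231, and its target *Nqo1* had 87.9 and 43.9. *Rxra*, the shared partner of many nuclear receptors, had 25.6 and 26.7. *Nr1i3*, the receptor whose known target *Cyp2b10* was among the genes higher in the CvP, had about 6 reads in CvP and 3 in the Epi. The list of sensors also held targets and regulators of them, such as *Nqo1*. None of its 8 expressed genes passed 3-fold towards the CvP or the Epi, against 15.9% and 1.96% of all expressed rows. The median log2 ratio of the list was 0.13. The list of P450 enzymes with other symbols held 2 genes, the thromboxane synthase *Tbxas1* and the prostacyclin synthase *Ptgis*. Both were at 0.08 or less in both libraries.

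*Cyp2f2*, *Cyp2a5* and *Cyp2g1* are known from club cells of the airway and from nasal mucosa. A list of other genes of airway and nasal tissue was therefore read beside them, and not all of these genes are particular to that tissue. *Gsto1*, a glutathione transferase, had 2143 in CvP against 938 in Epi. *Adh7*, an alcohol dehydrogenase of stratified epithelia, had 757 and 249, a ratio of 3.04. *Cbr2*, a lung carbonyl reductase, had 214 and 24.9, a ratio of 8.59 (7.97 to 9.27). *Aldh1a1*, *Aldh1a7* (15.5 and 1.06), *Omp* (2.11 and 0.20) and *Scgb3a1* (2.95, and listed at 0 in the Epi) were also higher in the CvP. In contrast the club cell secretoglobin *Scgb1a1* had 2.11 in CvP against 10.2 in Epi, and the mucin *Muc5b* 1.38 and 7.12. Of 9 expressed genes 6 thus passed 3-fold towards the CvP and 2 towards the Epi, against 15.9% and 1.96% of all expressed rows. The median log2 ratio was 2.88. The secreted products *Plunc* and *Scgb3a2* were at 0.21 or less in both libraries.

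**Figure D5:**
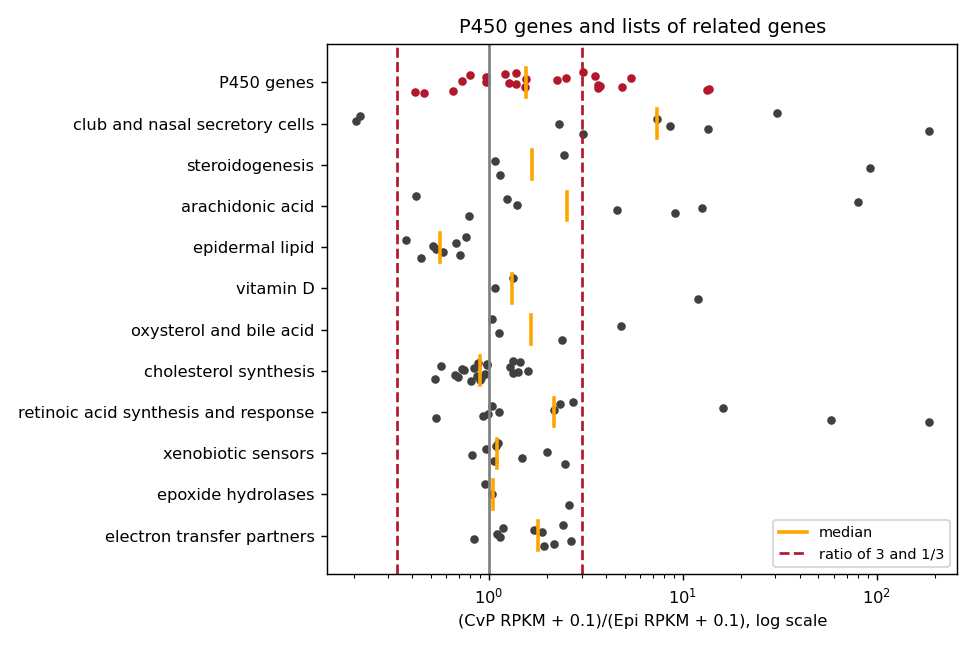
Ratio of CvP to Epi RPKM, with 0.1 added to each, on a log axis for the expressed P450 genes and for the expressed genes of 11 lists of related genes, with 1 point per gene, an orange bar at the median of each list and dashed lines at ratios of 3 and 1/3. The cholesterol and barrier lipid lists lie close to or below a ratio of 1, and the retinoic acid list spreads from 0.53 to beyond 100.

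Lists of tissue markers were read beside the labels. All 5 type III taste cell markers, 4 of 5 of type II and 2 of 3 of type I were higher in the CvP, and the keratinized epithelium list had 4 of 7 genes higher in the Epi. The exception among type I markers was *Slc1a3*, which was higher in the Epi, at 1.04 and 3.82. The summed RPKM of other lists moved as well. Salivary gland markers summed to 22.8 in CvP against 437 in Epi (5 of 8 expressed genes higher in the Epi and 2, *Pigr* and *Aqp5*, in the CvP), skeletal muscle markers to 4.25 and 45.9 (5 of 5), and immune markers to 219 and 26.7 (6 of 7 higher in the CvP). The salivary genes *Dcpp1* and *Smgc* were listed at 0 in the CvP, and the lymphocyte genes *Cd3e* and *Cd79a* at 0 in the Epi. Fibroblast markers summed to 27.5 and 128, most of it *Dcn*, while *Pdgfra*, the only other expressed one, was higher in the CvP (1.30 and 0.07), with *Col1a1*, *Col1a2* and *Col3a1* at 0.25 or less. Endothelial markers summed to 4.82 and 0.43, mostly *Vwf* (4.45 and 0.09) with *Tie1* and *Cdh5* larger in the Epi at 0.14 or less. Nerve and glia markers summed to 3.63 and 0.38, and *Nefl* (2.32, and listed at 0 in the Epi) was the only one expressed. Adipocyte markers summed to 0.17 and 3.36, nearly all of it *Fabp4* (0.17 and 3.24). *Adipoq*, *Plin1* and *Cfd* were at 0.07 or less in both libraries. Liver markers, among them *Alb* and *Apoa1*, reached no more than 0.36 in either library. The part of these cells in the P450 values was not tested.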

How the data were processed

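The authors mapped single-end reads with Bowtie 0.12.7 to NCBI37/mm9 and obtained RPKM with ERANGE. The deposited table holds RPKM in the CvP and the Epi, a gene length in kilobases and a position per row. It also holds the authors' CvP/Epi ratio, which was not used. The version and options of ERANGE are not given in the sources used here. Library depth was taken from the steps of 0.352 (CvP) and 0.358 (Epi) RPKM between the values of 163 rows of 0.1 kb. Among short rows (0.5 kb at most, under 20 reads) 96.4% and 97.4% of the values were within 0.1 of a whole read. To estimate reads, RPKM was multiplied by depth and by whichever was shorter, the listed length or the GENCODE M1 coding transcript (the longest one), so read numbers are approximate. Intervals and the floor of 3 reads cover counting error only. No pseudocount was used in ratios, and 0.1 was added for log2 medians, which understates the change of low genes.

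Every expressed member is named. Members below that are named only from an RPKM of 0.1, or where they complete a group. Of each list of related genes the 3 with the highest RPKM and those past 3-fold are named, and other list genes were named after their values were seen. The members and lists were chosen with earlier results of these data known, and 1 gene of the lists is not reported here and was left out of their counts. Of the GENCODE M1 coding genes with a Cyp symbol, 41 have no row here and were not analysed here. The calculations were tested on simulated data. Python 3.11.15, numpy 2.4.6, pandas 2.3.3, scipy 1.17.1 and matplotlib 3.10.9 were used.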

Additional observations from a re-analysis of the deposited data

How the results depend on the processing

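No paired analysis was possible because a single pool stands for each tissue and nothing was tested. The count of P450 genes higher in the CvP, 9, was 24 with no minimum RPKM, 4 at a fold of 5, 5 with a pseudocount of 1 and 4 with ratios divided by the median ratio of 1.31, and within 6 to 12 under the other settings, among them leaving out genes that share over 10% of their windows with another gene or overlap another gene (7 each), chosen after seeing the data. The count higher in the Epi, 0, was 1 at a minimum RPKM of 0.5, 3 with none, and 2 at a fold of 2 or after division by the median ratio, so that the split of 9 and 0 became 4 and 2. The 3 genes that met the criteria of the study were 8 at a minimum CvP RPKM of 3, 5 and 1 at ratios of 2 and 5, and 1 (*Cyp2b10*) after division. The median log2 ratio of 0.63 was 0.33 with no minimum RPKM (all rows 0.49), 0.24 after division and 0.90 with RPKM rescaled to the same sum. Without the leading gene, after division, rescaled and per transcript length (chosen after seeing the data), the ratio of sums was 1.37, 1.55, 2.45 and 2.18 for all members, 1.42, 1.77, 2.81 and 2.36 for family 2, and 1.64, 0.699, 1.11 and 1.00 for family 4. After division the ratio was 0.921 for *Cyp2s1* and 0.964 for *Cyp4f13*. Of 87 expressed list genes 15 (17.2%) passed the fold towards the CvP and 2 (2.30%) towards the Epi, near the 15.9% and 1.96% of all rows, against 27 and 5 at a fold of 2, and 14 and 4 after division. Genes with few Epi reads, such as *Cyp4v3* and *Cyp17a1*, are limited by depth, and no replicate exists for any value.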

Other observations

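Lists of genes that share substrates with P450 enzymes gave further values. In the arachidonic acid list 8 of 9 genes were expressed and 4 were higher in the CvP. Their median log2 ratio was 1.34. *Ltc4s*, the leukotriene C4 synthase, had an expression level of 12.7 in CvP against 0.06 in Epi, about 258 reads and 1 read, a ratio of 212 (45.1 to 10062). *Alox5*, which starts leukotriene synthesis, had 4.43 and 0.26, a ratio of 17.0 (95% interval 11.1 to 28.9). The lipoxygenases *Alox12e* and *Alox15* had ratios of 9.64 (7.84 to 12.0) and 4.68 (4.12 to 5.33). In contrast *Ptgs1*, a prostaglandin synthase, had 8.43 in CvP against 20.1 in Epi, a ratio of 0.419 (0.383 to 0.459). *Lta4h*, the leukotriene A4 hydrolase, had 26.9 and 19.3, a ratio of 1.39 with a lower bound of 1.29, and *Alox12* had 12.9 and 16.5, a ratio of 0.787 with an upper bound of 0.852.

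In the steroid list *Hsd11b1*, which regenerates active glucocorticoid, had 9.17 in the CvP and was listed at 0 in the Epi. Against the floor of 3 reads it was 123-fold higher, and the lower bound of its interval was 99.8. It was the only gene past 3-fold of 4 expressed, while 15.9% of all expressed rows were higher in the CvP. The median log2 ratio of the list was 0.73. *Srd5a1*, a steroid reductase, had 7.01 and 6.55, and *Star*, which carries cholesterol into mitochondria, had 1.57 and 0.59. In the oxysterol and bile acid list *Hsd3b7* was the only one of 4 expressed genes past 3-fold, against the same 15.9% of rows. It had 7.62 and 1.52, a ratio of 5.01 (3.90 to 6.43), and the median log2 ratio of the list was 0.72. *Hsd3b7* acts on the products of *Cyp7b1* and *Cyp39a1*. The liver X receptor *Nr1h2* had 23.5 and 22.6, and the transporter *Abcg1* 10.7 and 9.45.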
